A study of Mus musculus with 12 samples.

Results

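The genes described here encode the subunits of the oxidative phosphorylation machinery, grouped by the 5 complexes of the mitochondrial inner membrane. They were taken by symbol from the probe sets that the platform annotation pairs with a single gene, as symbols starting with Nduf (complex I), Sdha to Sdhd (complex II), Uqcr (complex III), Cox4i, Cox5a, Cox5b, Cox6, Cox7 or Cox8 (complex IV) and Atp5 (complex V). A probe set counted when its signal, scaled to a trimmed mean of 500, reached 100 on at least 2 arrays, and the brightest probe set stood for its gene. Of 71 symbols that met the name rule, 68 passed, out of 6539 gene symbols tested: 30 of complex I, 4 of complex II, 7 of complex III, 13 of complex IV and 14 of complex V. The 3 that did not pass were Cox7a1 (highest signal 50.6), Cox8a (84.4) and Ndufa12 (103, on 1 array). The name rule also takes Ndufaf1 and Ndufaf4, which are assembly factors of complex I, and Cox7a2l, which helps to join complexes III and IV into supercomplexes.

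Total RNA of mouse spleen, labelled with biotin, was read on 12 single-channel Affymetrix arrays. There were 6 groups of 2 arrays: females and males at 3-4 weeks, at 6-9 weeks and at 24-28 weeks, ages that the study places before, at and after puberty. No genotype, strain or treatment is given for any group. Within a group the arrays are told apart by a letter, a or b, and the labels do not name separate animals. A p-value below therefore measures only the spread between such arrays, which may be technical.

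Oxidative phosphorylation couples electron transport to ATP synthesis. Complex I takes electrons from NADH and complex II from succinate, complex III passes them from ubiquinol to cytochrome c, and complex IV passes them to oxygen, while complexes I, III and IV pump protons whose return through complex V drives ATP synthesis. All complexes but complex II also hold subunits encoded in mitochondrial DNA, which the rule does not take. In the spleen the machinery is used by lymphocytes, macrophages and, in the mouse, by erythroid precursors and dividing cells of the red pulp, whereas mature red cells have no mitochondria.

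Promoter sequences are shown for 1 member of each complex as background. RefSeq windows of 300 bases, from 250 bases before to 50 bases after the start on assembly GRCm38.p6, were found for 55 of the 68 members. They were searched on both strands for the core of the NRF1 site (CGCANGCG), an ETS site of the kind bound by GABP (CCGGAAG), a YY1 site (AAGATGGC) and an ERRA site (CAAGGTCA). Matches of different motifs did not overlap in the members' windows. Only members with a match in their window were eligible to be shown. Of these, the one with the smallest adjusted p-value between 24-28 and 6-9 weeks was taken per complex. Each promoter shown thus holds a match by that choice, and members without one, such as Cox7b, were passed over. The stretches below run from 120 bases before to 30 bases after the start, with matches in capitals.
Ndufc1 (complex I, chr3:51408926-51409075, minus strand): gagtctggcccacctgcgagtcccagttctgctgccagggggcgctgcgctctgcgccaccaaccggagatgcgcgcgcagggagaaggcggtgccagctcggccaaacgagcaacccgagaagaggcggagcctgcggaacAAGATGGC
Sdhd (complex II, chr9:50603820-50603969, minus strand): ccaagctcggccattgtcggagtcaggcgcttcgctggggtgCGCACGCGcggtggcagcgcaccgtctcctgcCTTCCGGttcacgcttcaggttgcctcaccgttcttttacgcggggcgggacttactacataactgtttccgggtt
Uqcr11 (complex III, chr10:80406792-80406941, minus strand): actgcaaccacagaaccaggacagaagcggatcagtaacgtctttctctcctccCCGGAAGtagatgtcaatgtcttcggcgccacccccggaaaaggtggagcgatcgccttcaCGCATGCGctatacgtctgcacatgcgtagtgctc
Cox6a1 (complex IV, chr5:115348929-115349078, minus strand): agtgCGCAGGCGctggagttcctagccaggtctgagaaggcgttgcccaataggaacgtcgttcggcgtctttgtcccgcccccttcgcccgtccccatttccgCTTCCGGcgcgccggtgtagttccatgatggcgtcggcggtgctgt
Atp5md (complex V, chr19:47090618-47090767, minus strand): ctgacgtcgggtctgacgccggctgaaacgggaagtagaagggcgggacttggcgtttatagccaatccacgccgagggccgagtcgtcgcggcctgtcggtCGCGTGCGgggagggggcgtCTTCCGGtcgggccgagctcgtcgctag
The capitals mark the YY1 letters just after the start of Ndufc1, and 1 NRF1 core and 1 ETS match, on either strand, in each of the other 4 promoters. At least 1 of these motifs was held by 35 of the 55 members. The NRF1 core was held by 20 of the 55 members (36.4%). Of 27025 genes with such a window, tested here or not, 9.2% held it. The ETS letters were held by 15 members (27.3%, against 9.9%), the YY1 letters by 8 (14.5%, against 3.2%) and the ERRA letters by 2 (3.6%, against 1.8%). The median difference between 24-28 and 6-9 weeks, described below, was 0.48 in the members with the NRF1 core and 0.29 in those without it, and 0.47 and 0.43 in those with and without the ETS letters. It was 0.47 and 0.43 with and without the YY1 letters and 0.44 and 0.44 with and without the ERRA letters. The counts of motif matches are read next. Such counts are of letters in a window and do not show that a factor was bound.

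Arrays of the same group correlated at r = 0.964 to 0.970 across probe sets and arrays of different groups at 0.873 to 0.960, where genes are not independent replicates. A signal of 100 was reached by 59.4% to 65.0% of the probe sets, depending on the array. Markers of the spleen's main cells were present: the summed scaled signal of 9 B cell genes ran from 19440 to 44080 over the arrays. Both male groups at the older ages stood apart in how the beta-actin control read at its 3' end relative to its 5' end, which depends on RNA integrity and labelling. That ratio was 0.376 and 0.334 for the 6-9 week males, 2.62 and 2.39 for the 24-28 week males and 0.574 to 1.37 on the other 8 arrays. The same ratio of the GAPDH control was 1.38 and 1.06 for the 6-9 week males and 1.63 to 2.92 on those other 8 arrays. The 24-28 week males, at 2.37 and 2.3, lay within that range. The 6-9 and 24-28 week males are also the groups in which the oxidative phosphorylation genes were most often lowest and highest. The part of either ratio in those results was not tested.

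Most members shared a course over the 6 groups. Males at 6-9 weeks had the lowest mean signal of all groups for 41 of 68 members (60.3%, against 18.3% of all 8926 probe sets tested), and males at 24-28 weeks the highest for 35 (51.5%, against 15.6%). The median deviation of the 68 members from their own means, in log2 units, was −0.30 and −0.35 on the arrays of males at 6-9 weeks and 0.26 and 0.25 on those of males at 24-28 weeks. Females gave 0.09 and 0.11 at 3-4 weeks, −0.11 and −0.07 at 6-9 weeks and 0.12 and 0.11 at 24-28 weeks, and the youngest males −0.09 and −0.08. Both arrays of males at 6-9 weeks were thus the lowest of the 12 and both of males at 24-28 weeks the highest. In RNA of an organ, fewer cells of a kind and less RNA per cell cannot be told apart.

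**Figure D1:**
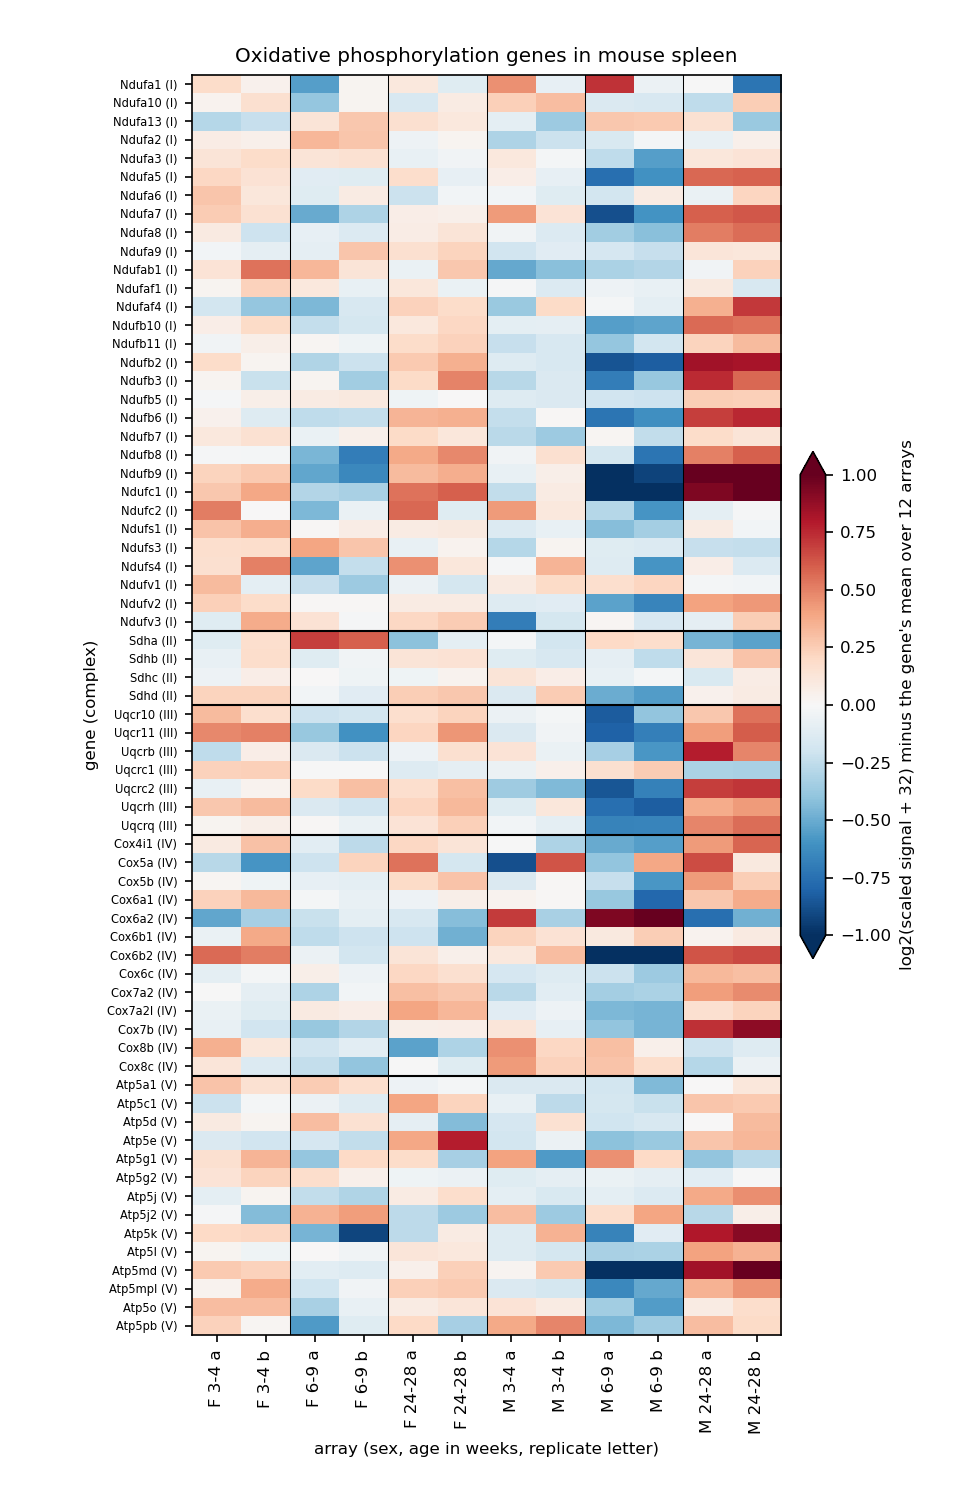
Deviation of log2(scaled signal + 32) from each gene's mean over 12 arrays (colour, log2 units), with the 68 genes as rows grouped by complex and the arrays as columns. Blue in the columns of males at 6-9 weeks and red in those of males at 24-28 weeks recur in most rows, with Cox6a2, Sdha and Uqcrc1 among the rows that run the other way.

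The course was steepest in complex III and flattest in complex II. The median deviation of the 7 complex III members was −0.76 and −0.66 in males at 6-9 weeks and 0.42 and 0.55 in males at 24-28 weeks. That of the 4 complex II members stayed between −0.14 and 0.17 on all 12 arrays. In males at 6-9 weeks it was −0.22 and −0.32 for complex I, −0.34 and −0.36 for complex IV and −0.26 and −0.27 for complex V, and in males at 24-28 weeks it was 0.17 and 0.24, 0.32 and 0.24, and 0.28 and 0.29. All probe sets moved the other way, with medians of 0.13 and 0.10 in males at 6-9 weeks and −0.11 and −0.13 in males at 24-28 weeks. No test of 1 complex against another was made.

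**Figure D2:**
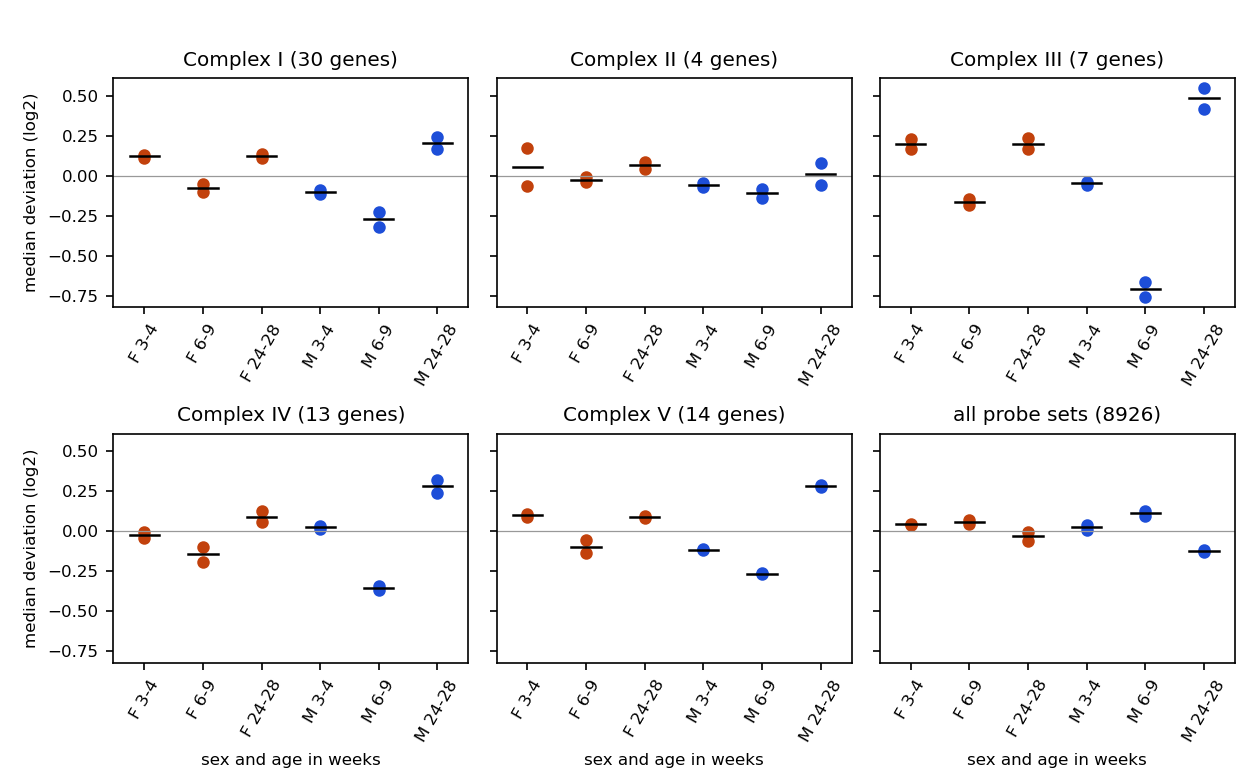
Median deviation (log2) of the genes of each complex, and of all 8926 probe sets, on each array (points, 2 per group, females orange and males blue) with the group mean as a bar. Complex III spans from −0.76 in males at 6-9 weeks to 0.55 in males at 24-28 weeks, while complex II stays between −0.14 and 0.17.

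The first comparison asked what differed between 24-28 and 6-9 weeks, after against at puberty, averaged over the sexes. Of 68 members 41 rose with age, 5 fell and 22 were not called, at an adjusted p below 0.05 in limma with adjustment over 8926 probe sets. Their median difference was 0.44 on the log2 scale, against −0.15 for all probe sets, of which 15.9% were called higher and 28.8% lower. Higher after adjustment were 16 of 30 members of complex I, 2 of 4 of complex II, 6 of 7 of complex III, 8 of 13 of complex IV and 9 of 14 of complex V, and lower were 1, 1, 1, 2 and 0. In 35 members all 4 arrays at 24-28 weeks lay above all 4 at 6-9 weeks, as they did in 10.6% of all probe sets. In what follows a pair of signals is that of arrays a and b of a group on the scaled MAS5 scale, "then" leads from a younger to an older group, and a difference is in log2(signal + 32). Signals of different genes come from different probes and cannot be set against each other.

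In complex I the smallest p-values were those of Ndufb9, Ndufc1 and Ndufb2, accessory subunits of the membrane arm. Ndufb9 gave a signal of 3685 and 3783 in females at 3-4 weeks, 2186 and 2006 at 6-9 weeks and 3939 and 4067 at 24-28 weeks. Its male signals were 2989 and 3287, then 1417 and 1641, then 6539.6 and 6492 at the same ages. At 24-28 weeks all arrays lay above those at 6-9 weeks, and both males lay above both females, a difference of 1.5 (SE 0.07, adjusted p = 2.61e-08) between the ages. Ndufc1 went from 2066 and 2013 in females and 823 and 972 in males at 6-9 weeks to 3695 and 3843 in females and 4873 and 5074 in males at 24-28 weeks, and had been 3060.4 and 3315 in females and 2124 and 2675 in males at 3-4 weeks. Both males at 6-9 weeks lay below every other array, the next lowest being 2013 in a female of that age, and the age difference was 1.65 (SE 0.08, adjusted p = 5.03e-08). Ndufb2 gave 3981 and 3562, then 2829 and 3013, then 4212 and 4489.7 in females and 3191 and 3126, then 1905 and 1966, then 6305 and 6228 in males from the youngest to the oldest, a difference of 1.12 (SE 0.06, adjusted p = 1.05e-07) with no overlap between the older ages. Ndufb8, another membrane arm subunit, gave 1156 and 1148, then 839 and 711, then 1521 and 1635 in females and 1134 and 1304, then 1029 and 689.6, then 1669.5 and 1776 in males, so that both sexes moved (1.0, SE 0.11, adjusted p = 2.24e-05). The other members higher were Ndufa5 (0.71), Ndufa7 (0.91), Ndufa8 (0.57), Ndufaf4 (0.55), Ndufb10 (0.73), Ndufb11 (0.39), Ndufb3 (0.85), Ndufb5 (0.17), Ndufb6 (0.99), Ndufb7 (0.21), Ndufs1 (0.23) and Ndufv2 (0.55).

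Core subunits of the matrix arm of complex I, which carry the electron path from NADH, were mixed. Ndufs1, which holds iron-sulfur clusters, gave 1695 and 1771 in females and 1239.6 and 1317 in males at 6-9 weeks and 1779.9 and 1801 in females and 1782 and 1646 in males at 24-28 weeks. The ages overlapped, the difference was 0.05 within females and 0.41 within males, and the average was 0.23 (SE 0.06, adjusted p = 0.0107). Ndufs3 was the only complex I member to fall, from 2440.1 and 2238 in females and 1698 and 1676 in males to 1755 and 1893 in females and 1571 and 1558 in males, a difference of −0.23 (SE 0.08, adjusted p = 0.0283) with overlap between the ages. Scaling the arrays to the same median in place of the same trimmed mean turned it to 0.05 (adjusted p = 0.673). Ndufv1, which binds NADH, was not called (−0.02, adjusted p = 0.893). Ndufv2, listed above and also a core subunit, rose by 0.55 (adjusted p = 1.53e-05).

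Complex II moved in both directions. Sdha, the flavoprotein that oxidises succinate, gave 175 and 220.2 in females at 3-4 weeks, 331 and 307 at 6-9 weeks and 137 and 178 at 24-28 weeks. The male signals of Sdha were 189.7 and 165, then 226 and 221, then 131 and 123. All 4 arrays at 24-28 weeks lay below all 4 at 6-9 weeks, and Sdha fell by 0.79 (SE 0.15, adjusted p = 0.000991). Sdhd, a membrane anchor of the complex, gave 4480.0 and 4475, then 3771 and 3548, then 4557 and 4643 in females and 3467 and 4588, then 2705 and 2589.8, then 3954 and 4069.6 in males, and rose by 0.46 (SE 0.08, adjusted p = 0.000715) from 6-9 to 24-28 weeks. Sdhb, the iron-sulfur subunit, rose from 3056 and 3256 in females and 3134 and 2783 in males to 3653 and 3683 in females and 3617 and 4065 in males (0.29, SE 0.08, adjusted p = 0.00766). The call of Sdhb was lost under quantile normalization and within females (largest adjusted p = 0.444). The female difference was tested in females alone and without either older male group. Sdhc, the other anchor, lay between 1559 and 1908 on the 12 arrays and was called in no comparison.

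**Figure D3:**
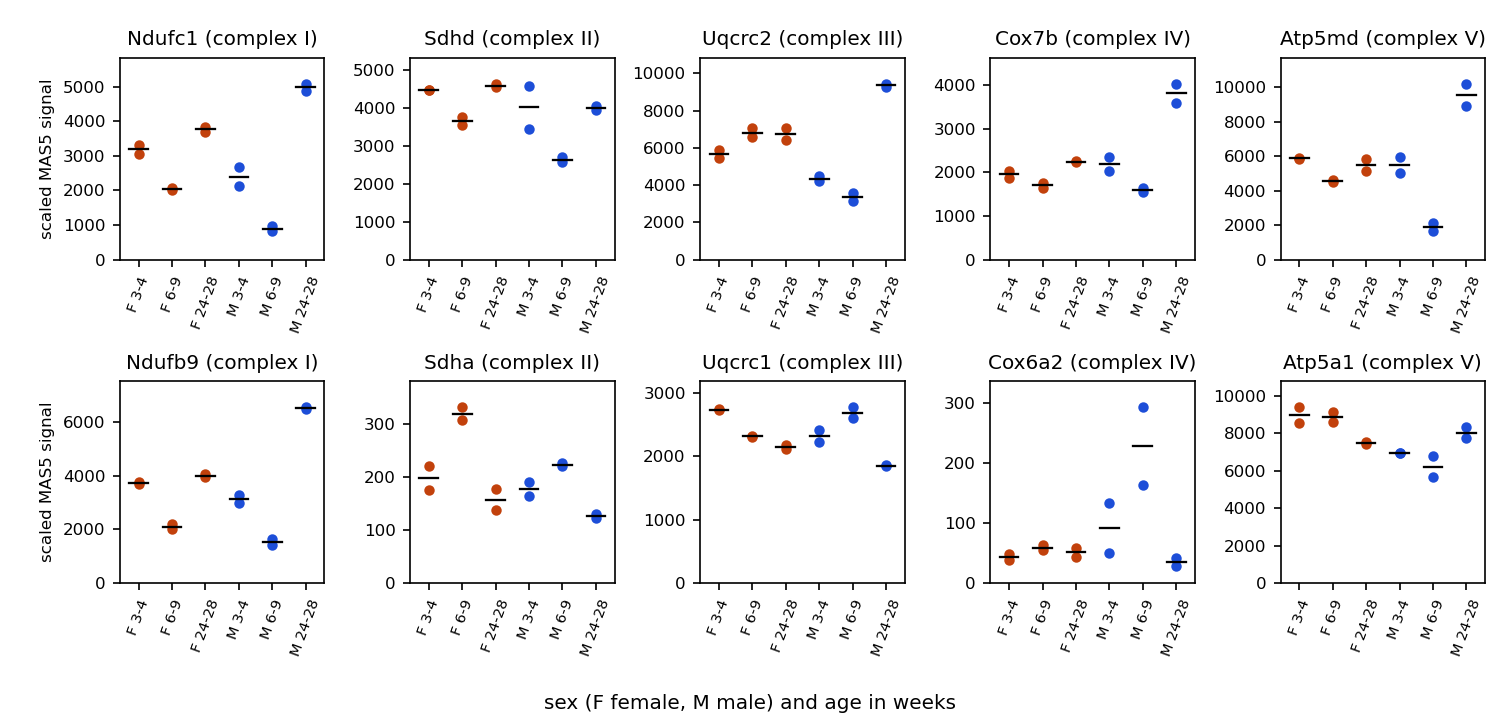
Scaled MAS5 signal of 10 members on each array (points, females orange, males blue, 2 per group) with the group mean as a bar, for 2 members of each complex. The upper row and Ndufb9 rise from 6-9 to 24-28 weeks in males, with Ndufc1 going from 823 and 972 to 4873 and 5074, while Sdha and Uqcrc1 fall between those ages.

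In complex III every small subunit rose and the pair of core proteins parted. Uqcr11 gave 1717 and 1744 in females at 3-4 weeks, 931 and 793 at 6-9 weeks and 1423 and 1673 at 24-28 weeks. On the male arrays Uqcr11 gave 1103 and 1190.1, then 685 and 749, then 1648 and 1879. Both sexes were lowest at 6-9 weeks with no overlap with 24-28 weeks, a difference of 1.04 (SE 0.08, adjusted p = 1.86e-06). Uqcrh, the hinge protein that sits by cytochrome c1, gave 8706 and 8983, then 6509.9 and 6326, then 8398 and 9059.8 in females and 6632 and 7815, then 4255 and 4057, then 9334 and 9685 in males (0.81, SE 0.07, adjusted p = 2.93e-06). Uqcrq gave 7304 and 7461, then 7241 and 6857, then 7909 and 8456 in females, a narrow range, and 7057 and 6704, then 4500.0 and 4523, then 10080.4 and 10602 in males (0.70, SE 0.06, adjusted p = 3.34e-06). Uqcr10 (0.71) and Uqcrb (0.67), which takes part in ubiquinone binding, rose as well.

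The core proteins of complex III, which are related to mitochondrial processing peptidases, had different signs. Uqcrc2 gave 5434 and 5885, then 6564 and 7055, then 6436 and 7056 in females at the rising ages. In males Uqcrc2 gave 4484 and 4210.3, then 3148 and 3585, then 9266 and 9425, a wider span than that of the females. The averaged age difference of 0.73 (SE 0.07, adjusted p = 7.01e-06) is the mean of −0.01 within females and 1.47 within males. Uqcrc1 gave 2724 and 2739, then 2316 and 2309, then 2116 and 2178 in females and 2228 and 2408, then 2594 and 2768, then 1855 and 1846 in males. It fell by 0.32 (SE 0.06, adjusted p = 0.000984), with all 4 arrays at 24-28 weeks below all 4 at 6-9 weeks. Uqcrc1 was not called with the arrays scaled to the same median or within females, alone or without either older male group (largest adjusted p = 0.778). The probe set of Uqcrc2 carries a suffix that marks possible cross-matching, as do 17 others among the members, so its identity is less certain than that of Uqcrc1. Among the others are those of Ndufa3, Ndufa5, Ndufb2, Sdhb, Uqcrb, Cox4i1, Cox6a1, Cox6b2, Cox6c, Atp5c1, Atp5d, Atp5e, Atp5g2 and Atp5md.

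In complex IV 8 members rose and 2 were called lower, Cox8b and Cox6a2. Cox7b, an accessory subunit, gave 2041 and 1883 in females at 3-4 weeks, 1649 and 1755 at 6-9 weeks and 2239.9 and 2254 at 24-28 weeks. Its male signals were 2345 and 2027, then 1633 and 1551, then 3594 and 4028. The oldest males lay above all other arrays, and the age difference was 0.82 (SE 0.07, adjusted p = 3.24e-06). Cox7a2, the isoform of most tissues, gave 5039.9 and 4743, then 4079 and 4948, then 6226 and 6093 in females and 4189.6 and 4699.5, then 3984 and 4043, then 6745 and 7022 in males (0.61, SE 0.07, adjusted p = 4.02e-05). Cox4i1, the general isoform of subunit 4, rose from 514 and 458 in females and 384 and 371 in males to 647 and 613 in females and 760.2 and 849 in males (0.69, SE 0.10, adjusted p = 0.000158), after 596 and 689.9 in females and 556 and 444 in males at 3-4 weeks. The probe set used for Cox4i1 carries a suffix. A second, dimmer one without a suffix gave −0.05 (adjusted p = 0.866). Cox5b, a zinc-binding subunit, rose from 5455 and 5406 in females and 4924 and 3863 in males to 6606 and 7059 in females and 7784 and 6858 in males (0.53, SE 0.09, adjusted p = 0.000316), with 5871 and 5627 in females and 5242 and 5851 in males at 3-4 weeks. Also higher were Cox6a1 (0.48), Cox6c (0.39) and the supercomplex factor Cox7a2l (0.47).

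Of the isoforms restricted to certain tissues, Cox6b2 rose and Cox8b fell, while Cox6a2 was too dim to judge. Cox6a2, the isoform of heart and skeletal muscle, gave 39 and 48.7, then 55.2 and 63, then 58.9 and 43.7 in females, all below 100. In males it gave 133 and 49.4 at 3-4 weeks, 162 and 292 at 6-9 weeks and 28.2 and 41.1 at 24-28 weeks, so only 3 of 12 arrays reached 100. Cox6a2 passed the filter through male arrays alone, and every female array and both oldest males lay below the limit of 100, so its calls are part of the counts and support no difference. From 6-9 to 24-28 weeks it differed by −0.13 within females and −1.92 within males. The call was lost within females, alone or without either older male group, and without male array b of 6-9 weeks (largest adjusted p = 0.859). Of 9 skeletal muscle genes tested, 3 were lower and 0 higher at 24-28 weeks, near the share of all probe sets called lower (28.8%). Their median difference was −0.09, against −0.15 for all probe sets. The summed signal of the 14 genes on the array was 1788 to 1824 in males and 1640 to 1940 in females at 6-9 weeks. It was 1390 to 1487 in males at 24-28 weeks. The part of muscle in the Cox6a2 values was not tested. Cox8b, also of heart and muscle, gave 529 and 441, then 352 and 375, then 270.1 and 321 in females and 570.1 and 473, then 508 and 423, then 347 and 368 in males, and fell by 0.31 (SE 0.12, adjusted p = 0.0456). The general partner of Cox8b, Cox8a, did not pass the filter. Cox6b2, known from testis, gave 902 and 867, then 576 and 525, then 658 and 624 in females and 648 and 749, then 172 and 269, then 944 and 968 in males (1.1, SE 0.12, adjusted p = 1.47e-05), on a probe set whose suffix makes its identity uncertain. Its general partner Cox6b1, which lay between 274 and 522, was called in no comparison.

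In complex V the rise included parts of the stalks and of the membrane sector. Atp5md, a small subunit of the membrane sector, gave 5929 and 5827 in females at 3-4 weeks, 4612 and 4516 at 6-9 weeks and 5139 and 5847 at 24-28 weeks. The males gave 5054 and 5935, then 1693 and 2151, then 8902 and 10195, so that males at 6-9 weeks lay below and males at 24-28 weeks above all other arrays. Its averaged difference was 1.28 (SE 0.09, adjusted p = 6.69e-07), the mean of 0.26 within females and 2.3 within males. The probe set of Atp5md carries a suffix, so its identity is less certain. Atp5e, the epsilon subunit of the central stalk, gave 2009 and 1902 in females and 1699 and 1741 in males at 6-9 weeks and 2960.2 and 3924 in females and 2756 and 2859 in males at 24-28 weeks, with 2039.8 and 1976 in females and 1984 and 2166 in males at 3-4 weeks. The difference was 0.79 within females and 0.70 within males, with no overlap between the ages, and the average was 0.74 (SE 0.08, adjusted p = 2.32e-05). Atp5mpl, another small membrane subunit, gave 6395 and 8104, then 5447 and 6095, then 7387 and 7494 in females and 5641 and 5514, then 3989 and 4375, then 7958 and 8531 in males (0.67, SE 0.08, adjusted p = 4.56e-05). The other members higher were Atp5c1 (0.43), the gamma subunit of the central stalk, Atp5j (0.47), Atp5k (0.92), Atp5l (0.41), Atp5o (0.44), which joins the peripheral stalk to the catalytic head, and Atp5pb (0.46) of the peripheral stalk. The catalytic head member Atp5a1 was not called (0.06, adjusted p = 0.526), nor were Atp5d, Atp5g1, Atp5g2 and Atp5j2.

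Within the sexes the difference was larger in males than in females for most members. Within females the median difference of the 68 members between 24-28 and 6-9 weeks was 0.21 (all probe sets −0.07) and within males it was 0.57 (all probe sets −0.25). The difference was above 0 in both sexes for 47 members and larger in males for 55. It exceeded 1 log2 unit for 21 members in males and 1, Ndufb8, in females (1.0, and 1.0 in males). Complex III had medians of 0.24 in females and 1.19 in males, complex I 0.17 and 0.43, complex II 0.11 and 0.19, complex IV 0.21 and 0.65 and complex V 0.27 and 0.56. A fit of the 6 female arrays alone called 18 members higher and 4 lower, against 43 and 4 in the male arrays alone. Over all probe sets those fits called 8.37% higher and 13.1% lower in females and 14.7% and 26.9% in males, so more was called in males over the whole array too. Without the 6-9 week males 20 members were higher and 4 lower (8.93% and 13.4% of all probe sets), and without the 24-28 week males 15 and 3 (7.89% and 13.8%). Both are again the difference within females (median 0.21), with other arrays in the estimate of the spread. Atp5md, Cox6b2, Sdhb, Uqcrq and Atp5mpl were among the members not called in females alone.

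**Figure D4:**
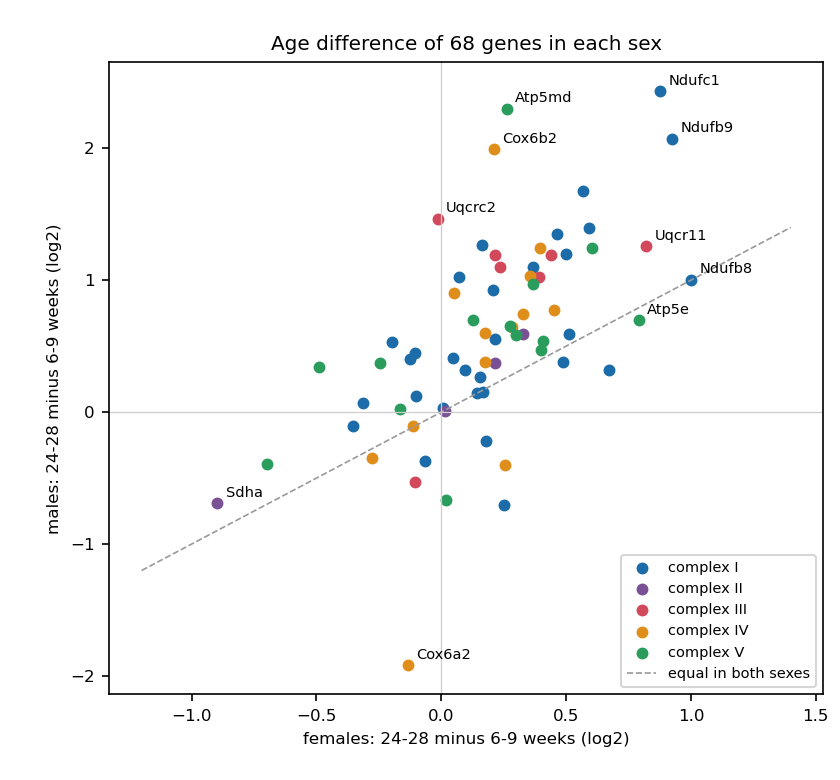
Log2 difference between 24-28 and 6-9 weeks of the 68 genes, within females (horizontal) and within males (vertical), coloured by complex, with a dashed line where both sexes are equal. Most points lie above the line: Ndufc1 is at 0.88 in females and 2.43 in males and Atp5md at 0.26 and 2.30.

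The size of this age difference moved with the scaling of the arrays. The median of all probe sets was −0.15 in the main scaling, 0.11 with the arrays scaled to the same median and 0.01 under quantile normalization. The members' median was 0.44, 0.72 and 0.27 in the same order, above that of all probe sets each time, and 41, 53 and 38 members were higher and 5, 2 and 5 lower. Other lists also moved between these ages, in either direction. Of 11 erythroid genes 10 were higher and 0 lower at 24-28 weeks. Their summed signal was 12160 to 19830 in males and 27200 to 30820 in females at 6-9 weeks and 35380 to 40370 and 29030 to 32520 at 24-28 weeks. In females at 6-9 weeks most of that sum came from the globin gene Hba-a1, which was not called between these ages and had group means of 125, 17290 and 13010 in females and 898, 5393 and 3142 in males from the youngest to the oldest. The other 10 genes, summed apart after these values were seen, gave 9846 to 11360 in males and 11390 to 12060 in females at 6-9 weeks and 34670 to 34800 and 17300 to 18240 at 24-28 weeks. Of 20 cell cycle genes 15 were higher and 1 lower, with sums over 21 genes of 22690 to 23530 and 31540 to 33580 in males and females at 6-9 weeks and of 61360 to 62630 and 39300 to 39600 at 24-28 weeks. Among 9 T cell genes 8 fell and 1, Cd3d, rose, with sums of 6430 to 6717 and 6957 to 7673 at 6-9 weeks and of 1832 to 1973 and 5418 to 5759 at 24-28 weeks, and 7 of 9 B cell genes fell. Of 12 neutrophil genes 10 rose in the average over the sexes. Their sums rose in males, from 23110 to 29630 at 6-9 weeks to 104500 to 108900 at 24-28 weeks. In females these sums fell, from 20570 to 20800 at 6-9 weeks to 17550 to 18840 at 24-28 weeks. Of 8 red pulp macrophage genes 7 fell. Of 16 pancreas genes, which mark a neighbouring organ, 14 rose and 1 fell, with sums over 17 genes of 97640 to 136600 in males and 58320 to 61420 in females at 6-9 weeks and of 122100 to 124000 and 176000 to 179300 at 24-28 weeks. The part of these cells and tissues in the members' rise was not tested.

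The second comparison set 6-9 against 3-4 weeks, at against before puberty, and more members fell than rose. Of 68 members 26 fell, 3 rose and 39 were not called, with a median of −0.18 against 0.05 for all probe sets, of which 11.2% were called lower and 14.2% higher. The 2 age comparisons share the arrays at 6-9 weeks. Lower were 12 members of complex I, 1 of complex II, 4 of complex III, 4 of complex IV and 5 of complex V. The members' median was −0.20 within females and −0.27 within males.

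Several members named above carried this fall. Ndufc1 differed by −1.01 (SE 0.08, adjusted p = 4.21e-06) and Ndufb9 by −0.92 (SE 0.07, adjusted p = 1.68e-06), each with all 4 arrays at 6-9 weeks below all 4 at 3-4 weeks. Ndufa7, an accessory subunit of the matrix arm, went from 8178 and 7602 in females and 9234 and 7528 in males at 3-4 weeks to 4819 and 5517 in females and 3703 and 4519 in males at 6-9 weeks, with 7166 and 7093 in females and 10408 and 10554 in males at 24-28 weeks. No array at 6-9 weeks overlapped with either other age, and the difference was −0.82 (SE 0.09, adjusted p = 4.44e-05). In complex III, Uqcr11 (−0.82), Uqcrh (−0.62), Uqcr10 (−0.51) and Uqcrq (−0.34) fell. In complex IV, Cox6b2 (−1.11), Cox6a1 (−0.46), Cox4i1 (−0.37) and Cox7b (−0.32) fell. The second probe set of Cox4i1 gave −0.02 (adjusted p = 0.951). Cox6a1, the general partner of Cox6a2, had signals of 15915 and 16939.8 in females and 13900.5 and 13707 in males at 3-4 weeks, 13386 and 12897 in females and 10422 and 7853 in males at 6-9 weeks and 13122 and 14135 in females and 16357 and 17524 in males at 24-28 weeks.

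In complex V, Atp5md (−0.93), Atp5k (−0.70), Atp5pb, Atp5o and Atp5mpl (−0.37) fell. Atp5o gave 2806 and 2808 in females and 2493 and 2398 in males at 3-4 weeks, 1796 and 2149 in females and 1769 and 1529 in males at 6-9 weeks and 2397 and 2461 in females and 2398 and 2561 in males at 24-28 weeks. All 4 arrays at 6-9 weeks lay below all other 8, a difference of −0.54 (SE 0.07, adjusted p = 0.000293) from 3-4 weeks. Atp5pb gave 469.8 and 401, then 257 and 361, then 457 and 308 in females and 522 and 566, then 280.4 and 302, then 497 and 456 in males, with a difference of −0.65 (SE 0.14, adjusted p = 0.00571).

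The 3 members that rose were Sdha, Ndufa2 (0.21) and Ndufa13. For Sdha the difference was 0.45 (SE 0.15, adjusted p = 0.0419). Ndufa13, an accessory subunit also studied in cell death, went from 524 and 548 in females and 603 and 495 in males to 709.7 and 788 in females and 786 and 780.2 in males, then 727 and 700.0 in females and 724 and 493 in males at 24-28 weeks, a difference of 0.48 (SE 0.12, adjusted p = 0.0105) from 3-4 to 6-9 weeks. Its 4 arrays at 6-9 weeks lay above those at 3-4 weeks. Ndufa13 was not called in either sex alone or without the males at 6-9 weeks, which leaves the female difference (largest adjusted p = 0.124). Sdha lost its call under quantile normalization, under scaling to the same median and in either sex alone, among 16 of 25 alternatives (largest adjusted p = 0.433). Females alone gave 15 members lower and 0 higher (5.32% and 5.72% of all probe sets), and without the males at 6-9 weeks 14 were lower and 0 higher (5.77% and 6.11%). The latter is also the difference within females, with another estimate of the spread. Beside the fall, 9 of 11 erythroid genes were lower and 1 higher, and 18 of 20 cell cycle genes were lower and 0 higher, with cell cycle sums of 57400 to 58080 in females and 47640 to 50060 in males at 3-4 weeks. The 10 erythroid genes other than Hba-a1, the gene that was higher, summed to 33010 to 33660 in females and 33470 to 34620 in males at 3-4 weeks. In the same comparison 7 of 12 neutrophil genes were lower and 1 higher, 4 of 16 pancreas genes were lower and 1 higher, and all 8 red pulp macrophage, 5 of 9 B cell and 4 of 9 T cell genes were higher. The part of these lists was not tested.

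Males and females were then compared at each age. At 3-4 weeks few members differed: 4 were lower in males, 0 were higher and 64 were not called, with a median of −0.13 against −0.01 for all probe sets (1.22% called lower and 1.85% higher). At an unadjusted p below 0.05 limma gave 20 lower and 1 higher, against 8.17% and 6.86% of all probe sets. Ndufab1, the mitochondrial acyl carrier protein that is also a complex I subunit, gave 1519 and 1625 in males and 2399.9 and 3197 in females, a difference of −0.81 (SE 0.15, adjusted p = 0.0156). At the later ages its signals were 2759.6 and 2388, then 2088 and 2644 in females and 1743 and 1772, then 2128 and 2570.4 in males. Ndufs1 gave 1519 and 1589 in males and 2049.9 and 2168 in females (−0.43, SE 0.09, adjusted p = 0.0236). Ndufb7, an accessory subunit, gave 4438 and 4159 in males and 5758 and 5970.3 in females (−0.45, SE 0.10, adjusted p = 0.0415), and in females 5134 and 5561, then 6115 and 5801, and in males 5435 and 4526, then 6097 and 5868 later. Uqcr11 differed by −0.58 (SE 0.12, adjusted p = 0.0238). In all 4 both males lay below both females.

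These 4 calls depended on the fit. None of the 4 was called without the intensity trend or with only the groups compared (0 of 68 by limma in either), and quantile normalization gave 9 lower and 0 higher. Without single arrays of this age the count was 1 (female a), 0 (female b), 0 (male a) and 1 (male b), and it was 7 without either male array of 6-9 weeks. Other lists also differed between the sexes at 3-4 weeks. Of 12 neutrophil genes 9 were higher in males (sums of 47970 to 51950 against 24350 to 24690), of 16 pancreas genes 8 were higher (103900 to 109400 against 73450 to 74710), and 5 of 20 cell cycle genes were lower, on the sums given above. Their part in the members' difference was not tested.

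At 6-9 weeks, at puberty, members were lower in males in every complex. Of 68, 23 were lower, 3 higher and 42 not called, with a median of −0.28 against 0.03 for all probe sets (4.91% called lower and 3.66% higher). The count was 12 lower and 1 higher in complex I, 1 and 0 in complex II, 3 and 0 in complex III, 3 and 2 in complex IV and 4 and 0 in complex V. In 43 members both males lay below both females and in 9 above, against 25.0% and 29.1% of all probe sets.

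Members of 4 complexes were lower in males by over 1 log2 unit. For Ndufc1 the male minus female difference was −1.16 (SE 0.12, adjusted p = 0.000106), for Uqcrc2 −1.01 (SE 0.10, adjusted p = 8.31e-05), for Cox6b2 −1.23 (SE 0.17, adjusted p = 0.000815) and for Atp5md −1.24 (SE 0.13, adjusted p = 0.000125). Both males lay below both females of this age in all 4, on the signals given above. Uqcrc2, Cox6b2 and Atp5md were read on probe sets with a suffix, so their identity is less certain than that of Ndufc1. Ndufv2, an iron-sulfur core subunit next to Ndufv1, gave 3348 and 3062 in males and 4897 and 4915 in females (−0.61, SE 0.08, adjusted p = 0.000833), and 5752 and 5533, then 5145 and 5157 in females and 4453 and 4490.3, then 6462 and 6598 in males at the other ages. Ndufb2 (−0.59), Ndufa5 (−0.56), Ndufa3 (−0.54), Ndufs3 (−0.46), Ndufb9 (−0.45), Ndufs1 (−0.43), Ndufb6 (−0.42), Ndufa2 (−0.39), Ndufb10 (−0.33) and Ndufb5 (−0.29) were the other complex I members lower in males. A second probe set of Ndufb2, about as bright, gave −0.03 (adjusted p = 0.903), and the mean of its probe sets was not called (adjusted p = 0.056). Sdhd differed by −0.46 (SE 0.12, adjusted p = 0.0301), Uqcrq by −0.64, Uqcrh by −0.62, Cox6a1 by −0.54, Atp5mpl by −0.46 and Atp5l by −0.31. The call of Sdhd was lost when any single array of this age was left out (largest adjusted p over its alternatives 0.168), and that of Atp5mpl under quantile normalization and when 1 of 3 of those arrays was left out (0.208).

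Cox7a2l gave 3560.4 and 3533 in males and 5180.2 and 5121 in females at 6-9 weeks (−0.53, SE 0.08, adjusted p = 0.0017). Its signals were 4648 and 4482, then 6419.6 and 6136 in females and 4515 and 4709, then 5457 and 5688 in males at 3-4 and 24-28 weeks, with females on top at the oldest age too. Atp5a1, the alpha subunit of the catalytic head, gave 6772 and 5650.4 in males and 9144 and 8612 in females at 6-9 weeks (−0.52, SE 0.11, adjusted p = 0.00996), 6936 and 6943 in males and 9368 and 8544 in females at 3-4 weeks and 7715 and 8324 in males and 7416 and 7551 in females at 24-28 weeks. Both males lay below both females at the 2 younger ages and above them at the oldest, where the difference was not called (0.10, adjusted p = 0.601).

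The 3 members higher in males at this age were Ndufv1, Cox8c and Cox6a2. Ndufv1 gave 3064 and 3179 in males and 2315 and 2116 in females (0.49, SE 0.12, adjusted p = 0.0302), and at the other ages 3399 and 2542, then 2614 and 2417 in females and 2904 and 3120.4, then 2689.9 and 2675 in males. Cox8c, known from testis, gave 1429.9 and 1324 in males and 984 and 882 in females (0.55, SE 0.13, adjusted p = 0.0209), after 1578 and 1376 in males and 1269 and 1056 in females at 3-4 weeks and with 950.5 and 1122 in males and 1164 and 1072 in females at 24-28 weeks. Cox6a2 counts here only through the dim signals given above, where both females were below 100. None of the 3 was called without male array b of this age, when 21 were lower and 0 higher, and Ndufv1 and Cox8c lost their calls when any other array of this age was left out too. With the arrays scaled to the same median 25 members were lower and 0 higher. Of 16 pancreas genes 13 were higher and 1 lower in males at this age, on the sums given above, and 0 of 9 muscle genes were called.

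The count at 6-9 weeks was 11 lower and 0 higher without female array a of this age, 12 and 0 without female array b, and 11 and 1 without the intensity trend and with only the groups compared. Also lower in males at 6-9 weeks were 5 of 11 erythroid genes (2 were higher) and 9 of 20 cell cycle genes (0 were higher). The erythroid sums of the sexes were 9846 to 11360 in males and 11390 to 12060 in females without Hba-a1, which was not called (adjusted p = 0.289), and the cell cycle sums are given above. The beta-actin ratio was 0.376 and 0.334 in these males and 0.574 and 0.738 in these females. The part of any of these in the result was not tested.

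At 24-28 weeks the direction was the opposite, and members were higher in males. Of 68, 19 were higher, 0 lower and 49 not called, with a median of 0.15 against −0.08 for all probe sets (7.04% called higher and 9.68% lower). At an unadjusted p below 0.05 limma gave 23 higher and 2 lower, against 11.7% and 17.7% of all probe sets. The 19 were 10 of complex I, 0 of complex II, 3 of complex III, 2 of complex IV and 4 of complex V. In 35 members both males lay above both females and in 9 below, against 22.8% and 33.5% of all probe sets.

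The male minus female difference was 0.70 (SE 0.10, adjusted p = 0.000409) for Ndufb9, 0.75 (SE 0.10, adjusted p = 0.00034) for Cox7b and 0.79 (SE 0.13, adjusted p = 0.00125) for Atp5md, on the signals given above. Ndufa5, an accessory subunit of the matrix arm, gave 4122 and 4169.8 in males and 3117 and 2606 in females (0.54, SE 0.10, adjusted p = 0.00419), against 1619 and 1801 in males and 2546 and 2536 in females at 6-9 weeks and 2899 and 2607 in males and 3195 and 3062 in females at 3-4 weeks. The sexes thus changed places between the 2 older ages, on a probe set whose suffix makes its identity less certain. The other complex I members higher were Ndufa7 (0.55), Ndufb2 (0.52), Ndufa8 (0.44), Ndufb10 (0.40), Ndufc1 (0.40), Ndufb6 (0.37), Ndufv2 (0.34) and Ndufb5 (0.26). The second probe set of Ndufb2 gave 0.19 (adjusted p = 0.285).

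Uqcrb gave 8069 and 6565 in males and 4489 and 5223 in females at 24-28 weeks (0.58, SE 0.15, adjusted p = 0.0171), with 3910.4 and 4893, then 4202 and 4011 in females and 5134 and 4442, then 3704 and 3094 in males before. Uqcrc2 was higher in males by 0.47, Uqcrq by 0.34 and Cox6b2 by 0.55, a call lost in 13 of the 21 alternatives run for it (largest adjusted p = 0.154). Atp5k, the e subunit of the membrane sector, gave 640.5 and 690.0 in males and 289 and 376 in females (0.94, SE 0.24, adjusted p = 0.0176), with 409.7 and 414, then 247 and 172 in females and 320.4 and 458, then 211 and 325 in males at the younger ages. Atp5j, coupling factor F6 of the peripheral stalk, gave 3134 and 3336 in males and 2552 and 2723 in females (0.29, SE 0.09, adjusted p = 0.042), with 2243 and 2449, then 2025 and 1940.0 in females and 2247 and 2155, then 2238 and 2185 in males before, and Atp5l differed by 0.26. The call of Atp5j was lost in 12 of the 22 alternatives run for it, quantile normalization and 8 single arrays left out among them (largest adjusted p = 0.231). For Atp5c1 the brightest probe set gave −0.04 (adjusted p = 0.854) and another −0.42 (adjusted p = 0.00795), so the calls of its probe sets differed.

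**Figure D5:**
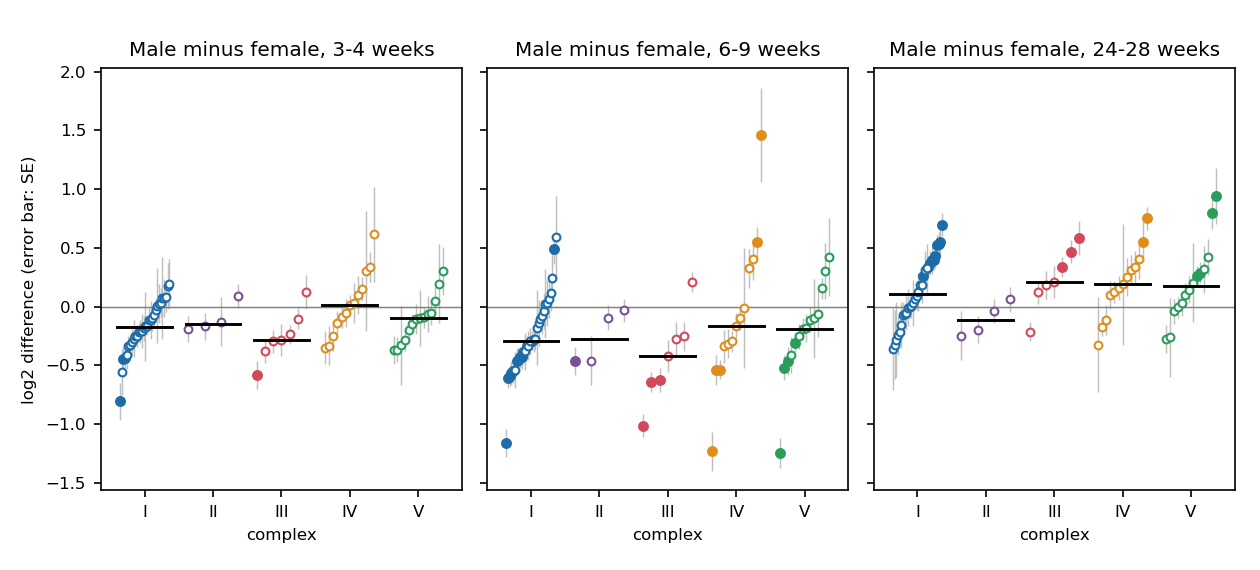
Male minus female difference (log2) of each member at 3 ages, sorted within its complex, with the SE as a bar, filled points for members called by limma and the median of the complex as a black line. At 6-9 weeks 23 members are called below 0 and 3 above, and at 24-28 weeks 19 above and 0 below.

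The count at 24-28 weeks rested on every array of that age. It was 5 higher and 1 lower without female array a, 11 and 0 without female array b, 6 and 0 without male array a and 8 and 0 without male array b, and 9 and 0 without the intensity trend. Other lists differed strongly between these groups: all 12 neutrophil genes were higher in males (sums of 104500 to 108900 against 17550 to 18840), 8 of 11 erythroid and 15 of 20 cell cycle genes were higher, and 9 of 9 T cell, 7 of 9 B cell, 4 of 8 red pulp macrophage and 9 of 16 pancreas genes were lower (3 pancreas genes were higher). The beta-actin ratio was 2.62 and 2.39 in these males and 1.36 and 1.23 in these females. Their part in the members' difference was not tested.

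The sexes changed order with age in a set of members. Limma's F test of the interaction of sex and age called 25 of 68 members, against 15.2% of all probe sets. They were 11 of complex I, 0 of complex II (0 also at an unadjusted p below 0.05, which 29.2% of all probe sets passed), 6 of complex III, 4 of complex IV and 4 of complex V. Without male array b of 24-28 weeks 16 were called, and without the intensity trend 11. Of the 23 members lower in males at 6-9 weeks, 13 (56.5%) were among the 19 higher in males at 24-28 weeks (68.4% of those). Of all probe sets 1.99% did the same, which was 40.6% of those lower at 6-9 weeks and 28.3% of those higher at 24-28 weeks. The 13 members were Ndufa5, Ndufb10, Ndufb2, Ndufb5, Ndufb6, Ndufb9, Ndufc1, Ndufv2, Uqcrc2, Uqcrq, Cox6b2, Atp5l and Atp5md. Of these Ndufb2, Ndufv2, Atp5l and Cox6b2 also have a second probe set. For Ndufb2, Ndufv2 and Atp5l it was called at neither age, and that of Atp5l had the opposite signs (0.05 and −0.26). For Cox6b2 it was called at 6-9 weeks (−1.37, adjusted p = 0.00604) and not at 24-28 weeks (0.64, adjusted p = 0.118). These sex comparisons share no arrays, though they share 1 estimate of the spread. The smallest adjusted p-values were those of Atp5md (5.94e-05), Uqcrc2 (8.99e-05) and Ndufc1 (0.00022).

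Averaged over the 3 ages few members differed between the sexes. In males 11 members were lower and 1 higher, with a median of −0.08 against −0.03 for all probe sets (5.1% called lower and 3.76% higher), and in no member did the 6 male arrays separate from the 6 female arrays, which is near the background, since they lay above in 0.504% and below in 0.314% of all probe sets. The members lower were 6 of complex I, among them Ndufs1 (−0.31, SE 0.05, adjusted p = 0.00284), Ndufc1 (−0.39) and Ndufs3 (−0.33), with Sdhd (−0.27), Uqcrc2 (−0.31), Uqcrh (−0.27), Cox7a2l (−0.23) and Atp5a1 (−0.26). Cox7b was higher (0.27, SE 0.06, adjusted p = 0.0134). Without the 24-28 week males 24 members were lower and 2 higher (5.41% and 4.53% of all probe sets). Without the 6-9 week males 4 were lower and 5 higher, near the share of all probe sets (5.9% and 4.72%). In the latter case Uqcrc2 turned to 0.05 (adjusted p = 0.690).

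Of the 68 members 14 were called in no comparison: Ndufa1, Ndufa10, Ndufa6, Ndufa9, Ndufaf1, Ndufc2, Ndufv3, Sdhc, Cox5a, Cox6b1, Atp5d, Atp5g1, Atp5g2 and Atp5j2. Some were dim. Cox5a, a nuclear-encoded subunit of complex IV, gave 49.4 and 33.6, then 53.5 and 83, then 111 and 55.2 in females and 21.6 and 120.2, then 42.8 and 96.7, then 122 and 73.2 in males, and only 3 of 12 arrays reached 100. Atp5j2, the f subunit of complex V, gave 76.4 and 49.1, then 108 and 114, then 59.1 and 53.2 in females and 104 and 53, then 91.4 and 112, then 58.5 and 82.1 in males, and 4 arrays reached 100. Ndufc2, a membrane arm subunit of complex I, gave 182 and 119, then 78 and 112, then 193 and 106 in females and 170.3 and 129.7, then 91.9 and 68, then 109 and 118 in males, and 9 arrays reached 100. The dimmest member of complex I was Ndufs4, a matrix arm subunit, with 132 and 177, then 69.8 and 92.4, then 170.0 and 127 in females and 114 and 154, then 102 and 65.6, then 122 and 102 in males, which was called between 6-9 and 3-4 weeks alone (−0.62, SE 0.21, adjusted p = 0.0471). Atp5g1, which encodes the c subunit of the proton-driven ring, gave 186 and 215, then 118 and 192, then 189.9 and 123 in females and 227 and 100, then 236 and 193, then 117 and 129.9 in males, and its partner Atp5g2, for the same protein, stayed between 1159 and 1482. Atp5d, the delta subunit of the central stalk, differed between the sexes by −0.41 at 6-9 weeks (adjusted p = 0.136) and 0.42 at 24-28 weeks (adjusted p = 0.0864). A dimmer probe set of Atp5d was called lower in males at 3-4 weeks (−0.75, adjusted p = 0.0153) and 6-9 weeks (−0.57, adjusted p = 0.0301). It was also called averaged over ages (−0.42, adjusted p = 0.00749), and the remaining ones were not called between the sexes.

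Genes next to the machinery were described from lists by function. The 5 respiratory chain genes that the name rule leaves out moved in the same directions as most members. They were Cyc1, the catalytic cytochrome of complex III, Cycs, the electron carrier cytochrome c, Uqcc1 and Uqcc2, which assist complex III assembly, and Atpif1, the inhibitor of complex V. All 5 were higher at 24-28 than at 6-9 weeks (median 0.60), and 4 were lower at 6-9 than at 3-4 weeks (median −0.43). Atpif1 had group means of 16900, 8540 and 15070 in females and 16670, 4550 and 25910 in males. It differed by 1.66 between the older ages (adjusted p = 2.4e-08), by −0.90 between the sexes at 6-9 weeks (0.00027) and by 0.78 at 24-28 weeks (0.00032). Cycs was the other called in a sex comparison, by 0.56 at 24-28 weeks (0.0296), and Uqcc2 differed by 0.60 between the older ages.

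Of the pathways that feed the chain, the TCA cycle stayed near the share of all probe sets (15.9% higher and 28.8% lower). Of 15 genes of the TCA cycle and pyruvate dehydrogenase, 3 were higher and 5 lower at 24-28 than at 6-9 weeks (median 0.03), with Dld, a shared dehydrogenase subunit, at 0.68 and Cs, citrate synthase, at −0.77. In each sex comparison at 1 age, 1 of the 15 was lower in males and 0 higher. Of 15 glycolysis genes 2 were higher and 7 lower at 24-28 than at 6-9 weeks (median −0.41), with the pyruvate kinase gene Pkm at −0.64 and the aldolase gene Aldoa at −0.52. From 3-4 to 6-9 weeks 4 of the 15 were higher and 0 lower.

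Lists of assembly, import, transcription and protection were set against the same share. Of 7 assembly factors 3 were higher and 1 lower at 24-28 than at 6-9 weeks, with the copper chaperone gene Cox17 at 0.52 and Cox16 at 0.73. Of 12 carrier and membrane genes 4 were higher and 1 lower, with the import genes Timm17a at 0.96 and Timm23 at 0.82. Of 9 transcription and mitochondrial DNA genes 2 were higher and 1 lower. Ssbp1, which binds single-stranded mitochondrial DNA, differed by 1.01 and Yy1, which encodes the factor that reads the YY1 letters, by −1.05. Of 8 antioxidant genes 5 were higher and 1 lower, with Gpx4 at 0.81 and Txnrd2 at 1.08, and 4 were lower and 0 higher at 6-9 than at 3-4 weeks. Between the sexes, 4 of the 8 were higher in males at 24-28 weeks and 0 lower (median 0.36). Over all probe sets 7.04% were higher and 9.68% lower in males at that age. At 6-9 weeks 1 of the 8 was higher in males and 1 lower (median −0.32).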

How the data were processed

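Total RNA of mouse spleen was read on 12 single-channel arrays. The deposited table holds 1 intensity per probe set and array, made with MAS5 per the submitters' processing notes, and its version was not given in the sources used here. Each array was rescaled to a mean of 500 after trimming 2% at either end, and log2(signal + 32) was tested. The offset understates changes of dim genes. Of the non-control probe sets, 8926 reached 100 on 2 arrays and were tested, and 3496 did not. A further 66 were controls.

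A model of the 6 groups was fitted with limma 3.58.1 (R 4.3.3, intensity trend, 6 residual and 5.43 prior degrees of freedom). Adjusted p-values are Benjamini-Hochberg over 8926 probe sets, with a threshold of 0.05, also for the moderated F test of sex by age. The code was tested on simulated data.

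The members and gene lists were chosen with earlier results of these data known. Values on every array are given for up to 3 called members with the smallest p-values per complex and comparison and the first in each direction, for core members, tissue isoforms with their partners, and the brightest or dimmest of a complex. Related lists give up to 2 genes by p-value. Other members shown by array, such as Ndufb8, were chosen after their values were seen.

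The letters a and b were checked as pairs: over 15 pairs of groups the deviations correlated at −0.066 to 0.059, with 0 above 0.1. That check looks only for a shift by letter shared between groups and cannot show what the letters stand for. They were not used as pairs in the main fit. The number of arrays limits precision, and the labels do not give how many animals stand behind them. Alternatives were quantile and median scaling, other offsets and filters, no trend, other probe set choices, fewer arrays and the letters as a block.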

Additional observations from a re-analysis of the deposited data

Results flagged for a closer look

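In 25 members the male minus female difference itself changed with age, by the moderated F test of limma adjusted over 8926 probe sets. In complex I the adjusted p-values were 0.00022 for Ndufc1, 0.000262 for Ndufb2, 0.000296 for Ndufb9, 0.000481 for Ndufv2, 0.000981 for Ndufa5, 0.00275 for Ndufb10, 0.00836 for Ndufb6, 0.0141 for Ndufb5, 0.0145 for Ndufa7, 0.0149 for Ndufa3 and 0.0162 for Ndufa8. In complex III they were 8.99e-05 for Uqcrc2, 0.000714 for Uqcrq, 0.00988 for Uqcrh, 0.0235 for Uqcr11, 0.0341 for Uqcrc1 and 0.0372 for Uqcrb, which leaves Uqcr10 as the only member of the complex not called. In complex IV they were 0.000981 for Cox6b2, 0.00453 for Cox7b, 0.0165 for Cox7a2l and 0.0184 for Cox6a1. In complex V they were 5.94e-05 for Atp5md, 0.0115 for Atp5l, 0.0319 for Atp5a1 and 0.0485 for Atp5mpl. In Uqcrc1 both males lay above both females at 6-9 weeks and below them at 24-28 weeks. Of all probe sets, 15.2% had a called interaction.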

How the results depend on the processing

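Counts below are members called of 68 unless another number is given, and unless stated the direction was that of the main count. Without the intensity trend 0 members were called between the sexes at 3-4 weeks, 12 at 6-9 weeks, 9 at 24-28 weeks and 5 averaged over ages, and 11 for the interaction. With only the groups compared 0 were called at 3-4 weeks and 12 at 6-9 weeks, and quantile normalization gave 9 at 3-4 weeks. Of the 50 members without a suffixed probe set, 12 were called at 24-28 weeks (19 of 68 in the main count) and 16 for the interaction (25 of 68). Without the 6-9 week males the age comparisons gave 14 (6-9 against 3-4 weeks) and 24 (24-28 against 6-9 weeks), and without the 24-28 week males 18 for the latter and 26 for the sexes averaged over ages. In each of these age comparisons only the difference within females was then left. Female arrays alone, chosen after seeing the data, gave 15 and 22 for that difference. Leaving out 1 array at a time gave 0 to 7 between the sexes at 3-4 weeks, 11 to 25 at 6-9 weeks, 6 to 20 at 24-28 weeks and 16 to 27 for the interaction. The cause of these moves was not tested. With the arrays scaled to the same median Ndufs3 turned from −0.23 to 0.0545 between 24-28 and 6-9 weeks, and without the 6-9 week males Uqcrc2 turned from −0.31 to 0.046 between the sexes.

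With the letters as a replicate block 45 members were called between 24-28 and 6-9 weeks, 27 between 6-9 and 3-4 weeks, 4, 25 and 17 between the sexes at the rising ages, 14 averaged and 25 for the interaction, so no count moved by over 1.5 times. Over 71 pairs of a member and a comparison, 1488 of 1669 values under alternatives kept direction and call, 179 lost the call, 89 of them with 1 array left out, and 2 changed sign. The calls of 32 pairs held in every alternative run. Gaps near the dim limit of 100 are the least certain, since the offset compresses them.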
